A study of Mus musculus with 30 samples.

Results

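Of the 12488 probe sets on the array, 15 were low in mouse liver after 24 h of each of 3 PPAR-alpha agonists and were no longer low against vehicle after 5 days. They were chosen by group means of the deposited intensities. Control probe sets were left out, and the vehicle mean had to be at least 100 at both times. The mean under each of the 3 agonists had to be at most 0.8 times the vehicle mean at 24 h and at least 0.9 times the vehicle mean at 5 days. Of 4282 probe sets past the intensity minimum, 692 were lowered at 24 h, so that the 15 were 2.17% of those. Of the others lowered at 24 h, 596 were still at most 0.8 times vehicle under all 3 agonists at 5 days and 81 were mixed. The ratios of agonist to vehicle at each time chose the members and are given as a description.

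PPAR-alpha is a nuclear receptor that binds DNA as a partner of the retinoid X receptor when fatty acids or synthetic agonists occupy it. In liver it is known for raising the transcripts of fatty acid uptake and oxidation and of ketone body synthesis. It is also known to lower other transcripts, among them those of acute phase proteins and of amino acid breakdown. A transcript that is low early and not later can return to its earlier level, or the untreated level can itself have moved, and a ratio to vehicle at each time does not tell these apart.

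The livers came from male C57Bl/6 mice, with 1 array per liver and 30 arrays in all. CP-775146, CP-868388 and CP-865520, piperidine compounds known by code names only, were given at 1 mg/kg per day for 24 h or 5 days, and the vehicle mice received water for the same times. Each group held 4 arrays, except CP-775146 at 5 days with 2, and each time had its own vehicle group. The design counts mice in these numbers, so arrays count as mice here. An array had 5600 to 6741 probe sets above the lowest value of the table, 50, and no value of the 15 lay at it. Probe sets come without gene names in the tables used here, so members are named by their IDs, and the liver label could not be set against marker transcripts. Whole liver was measured, where fewer cells of a type and less RNA per cell cannot be told apart.

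The members spanned a range of intensities at 24 h under vehicle. The brightest, 101955_AT, averaged 2084 ± 499 under CP-775146, 2253 ± 399 with CP-868388 and 1970 ± 445 with CP-865520, against 3392 ± 1046 under vehicle (SD, n = 4 each). At the other end, 95101_AT averaged 120.5 ± 32.6, 117 ± 31.5 and 97.0 ± 12.9 under the same agonists, against 157 ± 46.2 under vehicle. Levels of different probe sets are not comparable as transcript amounts, because each probe set binds with its own strength. Of the 15, 2 lay under 200 in both vehicle groups, 103875_AT and 95101_AT. The ID suffixes, which mark how specific a probe set is to its transcript, were AT in 12 members and F_AT, G_AT and I_AT in 1 each. The suffix AT was on 3412 of the 4282.

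After 24 h the median ratio to vehicle over the 15 was 0.680 under CP-775146, 0.664 with CP-868388 and 0.679 with CP-865520. Over the 4282 probe sets past the minimum, the same medians were 0.936, 0.850 and 0.995. The lowest single ratio was 0.534, in 104024_AT under CP-865520. In each of the 12 agonist arrays at 24 h the median member lay below the vehicle mean. Its log2 ratio was -0.50 ± 0.12 under CP-775146, -0.66 ± 0.15 with CP-868388 and -0.62 ± 0.17 with CP-865520, against -0.05 ± 0.17 in the vehicle arrays (SD over arrays, n = 4 each). After 5 days the medians over members of the ratio were 1.14, 1.18 and 1.07, against 0.803, 0.878 and 0.849 over the 4282. Of the 15, 7 were above vehicle at 5 days under all 3 agonists.

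Array by array at 24 h, the median log2 ratio of the members ran from -0.61 to -0.39 under CP-775146, from -0.84 to -0.49 with CP-868388 and from -0.87 to -0.51 with CP-865520, against -0.25 to 0.15 in the vehicle arrays. At 5 days it was -0.02 and 0.40 in the arrays of CP-775146, and ran from 0.07 to 0.32 with CP-868388 and from -0.08 to 0.29 with CP-865520, against -0.06 to 0.04 in the vehicle arrays. The 4 arrays of CP-868388 at 5 days lay above all 4 vehicle arrays of that time. The same arrays chose the members, and the rule favours a high ratio at 5 days, so nothing is read from this.

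All 12 agonist arrays at 24 h were below all 4 vehicle arrays in 2 members, where 8.16% of the 7963 probe sets tested had this pattern. One was 92437_AT. Its intensities were 743, 812, 527 and 526 under CP-775146, 586, 705, 515 and 652 with CP-868388 and 567, 644, 499 and 425 under CP-865520, against 973, 1174, 864 and 955 under vehicle. The highest agonist array, at 812, was below the lowest vehicle array, at 864. After 5 days it had 1092 and 881 under CP-775146, 882, 1261, 916 and 1137 with CP-868388 and 642, 1038, 711 and 613 under CP-865520, against 850, 728, 890 and 752 under vehicle. The groups overlapped at 5 days, with the highest values under CP-868388. The other was 102769_F_AT. It had 557, 678, 679 and 458 under CP-775146, 660, 550, 412 and 553 with CP-868388 and 537, 510, 715 and 546 under CP-865520, against 853, 834, 939 and 860 under vehicle. At 5 days its vehicle arrays read 555, 570, 528 and 826, so that 3 of 4 had come down into the range seen under the agonists at 24 h.

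The member with that lowest ratio, 104024_AT, was bright. At 24 h it had 1212, 1355, 823 and 1189 under CP-775146, 898, 1340, 1803 and 1339 with CP-868388 and 1314, 1010, 972 and 927 under CP-865520, against 2024, 1745, 2212 and 1922 under vehicle. Arrays of CP-775146 and CP-865520 lay below all vehicle arrays, and 1 array of CP-868388, at 1803, overlapped them. At 5 days the means were 1404 ± 18.4 under CP-775146 (SD, n = 2), 1538 ± 170 with CP-868388 and 1313 ± 249 with CP-865520, against 1436.5 ± 88.4 under vehicle (SD, n = 4 each).

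The dimmer members had smaller differences in intensity. 103875_AT averaged 117 ± 8.6, 115 ± 13.5 and 119 ± 9.22 under CP-775146, CP-868388 and CP-865520 at 24 h, against 155 ± 24.0 under vehicle (SD, n = 4 each). 93058_AT averaged 241 ± 35.6, 249 ± 57.7 and 197 ± 43.8 under these agonists, against 317 ± 63.7 under vehicle. 94916_AT averaged 214 ± 66.5, 198.5 ± 75.9 and 264 ± 43.1, against 336.5 ± 35.2 under vehicle. At 5 days 94916_AT had the highest ratios to vehicle of the 15, 1.51 and 1.49 under CP-775146 and CP-868388, and its vehicle arrays then read 219, 198, 222 and 241.

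Differences were fitted with limma on log2(intensity + 50), with all 30 arrays in 1 model of 8 groups, over the 7963 probe sets above 50 on at least 2 arrays. A call is an adjusted p under 0.05 with Benjamini-Hochberg adjustment over these 7963, two-sided. On this scale a fold change of a dim probe set is understated. Since the rule used the contrasts with vehicle, nothing is read from the calls in them. At 24 h, 9 members were called lower under CP-775146, where 12.6% of all probe sets tested were. Under CP-868388, 10 were called lower, where 28.2% of all were. CP-865520 gave 9 lower calls among the members and 11.3% over all. The arrays of agonist and vehicle did not overlap, with agonist lower, in 7, 6 and 7 members, where 14.7%, 24.4% and 11.4% of all did. At 5 days, 0 members were called against vehicle under any agonist, where the calls over all probe sets were 37.1% for CP-775146, 37.8% for CP-868388 and 42.1% for CP-865520. At an unadjusted p under 0.05, limma gave 0, 3 and 1 members, where 45.6%, 46.2% and 49.4% of all passed. The 5-day count depended on the scaling: members called higher were 5, 5 and 1 when arrays were centred on probe sets that never touch the floor, where 24.4%, 17.0% and 22.0% of all were called higher. They were 3, 2 and 3 after quantile normalization, where 17.7%, 16.7% and 19.2% of all were. The 24 h counts changed when single arrays were left out. They were 2 under CP-775146 without its replicate 1, and 5 under CP-865520 without its replicate 4 or without replicate 4 of vehicle. Under CP-868388 they ran from 8 to 13. The shares of all probe sets called in these fits were not computed, so the changes are not read as particular to the members.

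The measures of RNA integrity differed between the groups at both times. For Gapdh, a glycolytic enzyme whose transcript serves as a control, the 5' over 3' control intensity in log2 was 0.03 ± 0.07 under CP-775146, -0.36 ± 0.23 with CP-868388 and -0.05 ± 0.27 with CP-865520, against 0.02 ± 0.11 under vehicle (SD, n = 4 each). The value drops when the 5' part of a transcript gives less signal. The beta-actin means at 24 h were -0.79, -1.14 and -0.88 under the same agonists in turn, against -0.61 under vehicle. Those for pyruvate carboxylase at 24 h were -1.63, -2.76 and -1.59, against -1.39 under vehicle. At 5 days the beta-actin value was -1.08 ± 0.21 under CP-775146 (SD, n = 2), -0.97 ± 0.12 with CP-868388 and -1.29 ± 0.25 with CP-865520. It was -0.80 ± 0.18 under vehicle (SD, n = 4 each). The means for pyruvate carboxylase were -1.80, -1.76 and -1.91, against -1.40 under vehicle, and those for Gapdh 0.06, 0.15 and -0.10, against 0.03. With the mean of the standardised Gapdh, beta-actin and pyruvate carboxylase ratios as a covariate, the calls against vehicle at 24 h were 7, 1 and 7 under CP-775146, CP-868388 and CP-865520. The share of all probe sets called in this fit was not computed, so the drop is not read as particular to the members. At 24 h the mean ratios were lowest under CP-868388, and those of beta-actin and pyruvate carboxylase were below vehicle under all 3 agonists. Covariate and agonist therefore overlap and cannot be told apart. The 1 member still called under CP-868388 was 102768_I_AT. The median log2 difference of the members under CP-868388 was -0.30 with the covariate, against -0.55 without it. Applying the rule without the 3 arrays that had a Gapdh value below -0.4 gave 14 probe sets, of which 12 were among the 15, and 160102_AT, 160119_AT and 94916_AT were lost.

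The vehicle groups were themselves at different levels. In 15 of 15 members the vehicle mean was lower at 5 days than at 24 h, with a median ratio of 0.725 and a range from 0.505 to 0.832. Over the 4282 the median of this ratio was 0.950 and 58.5% lay below 1. Over the 677 probe sets lowered at 24 h that did not meet the 5-day condition it was 0.798. The rule favours a high vehicle mean at 24 h and a low one at 5 days, so part of this is set by the choice, and no test is read from it. In this comparison, 5 members were called lower at 5 days, where 11.5% of all probe sets were. The vehicle arrays of the 2 times did not overlap, with 5 days lower, in 6 members, where 11.5% of all did.

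In 160102_AT the vehicle arrays of the 2 times were clearly apart. Under vehicle it read 139, 139, 139 and 140 at 5 days, against 301, 194, 238 and 270 at 24 h. Under the agonists at 24 h it had 199, 208, 201 and 194 with CP-775146, 149, 213, 165 and 215 with CP-868388 and 170, 203, 188 and 120 with CP-865520. At 5 days it had 188 and 134, then 128, 167, 128 and 179, then 177, 193, 169 and 195 under the same agonists in turn. Its mean was lower at 5 days than at 24 h under CP-775146 and CP-868388, with ratios of 0.803 and 0.811, while the vehicle ratio was 0.555. A ratio to vehicle above 1 at 5 days, between 1.08 and 1.32, came with agonist levels that had not gone up in 2 of 3 groups.

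The change of the ratio to vehicle between the times is the sum, on the log2 scale of group means, of the agonist's own change and the fall of the vehicle. Averaged over the 15, the vehicle's fall of 0.54 was 74.2% of the change for CP-775146, 65.5% for CP-868388 and 78.5% for CP-865520. The agonist's own change averaged 0.19, 0.28 and 0.15. The vehicle part was the larger in 11, 8 and 12 members. These shares describe the members and are set in part by the rule, which uses the same vehicle means.

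The agonist means that the rule used were mostly higher at 5 days than at 24 h. The rule asks for low agonist means at 24 h and high ones at 5 days, which favours such a change, so the ratios and calls here are a description and nothing is read from the calls. The median ratio of 5 days to 24 h over the members was 1.13 under CP-775146, and 1.21 with CP-868388 and 1.20 with CP-865520, against 0.909, 1.01 and 0.903 over the 4282. The mean was higher at 5 days under all 3 agonists in 11 members, lower under all 3 in 160119_AT, and mixed in 160102_AT, 94270_AT and 95137_AT. Those 4 also had the lowest vehicle ratios of 5 days to 24 h, between 0.505 and 0.591. Called higher at 5 days were 104249_G_AT, 160388_AT and 92437_AT under CP-775146, which is 3 members where 8.49% of all probe sets were. Without replicate 1 or without replicate 2 of CP-775146 at 5 days, 0 members were called higher, and 95137_AT was called lower without replicate 1. CP-868388 also gave 3, namely 102768_I_AT, 92437_AT and 94916_AT, where 5.68% of all were called. With the integrity covariate 1 member was called higher and 160102_AT was called lower, at -0.47 (log2), and the median over members was 0.11, against 0.26 without it. CP-865520 gave 1, 92437_AT, where 10.7% of all were. The arrays did not overlap, with 5 days higher, in 4, 4 and 0 members, where 16.4%, 7.15% and 9.04% of all did.

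Relative to vehicle at 24 h, 160119_AT had a vehicle ratio at 5 days of 0.505. 94916_AT came close to the earlier vehicle level under 2 agonists, with 5-day ratios of 0.985 under CP-775146 and 0.973 under CP-868388, while its vehicle ratio was 0.654. 104249_G_AT went past it, at 1.14 under CP-775146 and 1.05 under CP-868388.

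The 5-day means were also set against the vehicle level at 24 h. The 5-day mean reached at least 0.9 times the 24 h vehicle mean under all 3 agonists in 1 member, under at least 1 agonist in 7 and under none in 8. By agonist, 5, 6 and 3 of the 15 reached this level under CP-775146, CP-868388 and CP-865520, where 1972, 2220 and 2134 of the 4282 did. The rule favours a high vehicle mean at 24 h, so a low count is set in part by the choice. These counts are a description, and no verdict on a recovery is read from them. The label of a recovery describes a ratio to the vehicle of each time, which the rule set. With the mean of both vehicle groups as the reference of both times, an alternative chosen after the data were seen, 10 probe sets met the rule and 0 of them were among the 15. All 15 had a lower vehicle mean at 5 days, so pooling raises each 24 h ratio and lowers each 5-day ratio. A loss of members was thus largely set in advance, and nothing is read from it.

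The 1 member with a 5-day mean of at least 0.9 times the 24 h vehicle mean under all 3 agonists was 160388_AT. At 24 h it had 460, 749, 709 and 460 under CP-775146, 917, 618, 508 and 591 with CP-868388 and 513, 815, 598 and 764 under CP-865520, against 928, 733, 940 and 1034 under vehicle. The groups overlapped at 24 h through the vehicle array at 733. At 5 days it had 1204 and 797, then 781, 925, 952 and 1020, then 751, 1019, 968 and 583 under the same agonists, against 476, 689, 811 and 815 under vehicle. Relative to vehicle at 24 h, the 5-day means were 1.10, 1.01 and 0.914. Its call of a difference between the times under CP-775146 had a ratio of 5 days to 24 h of 1.68, with 2 arrays at 5 days. Between the times it was not called under CP-868388 or CP-865520 (limma adjusted p = 0.156 and 0.338). At 24 h it was also not called against vehicle under these 2 (limma adjusted p = 0.0760 and 0.158).

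For 104249_G_AT the 5-day mean under CP-865520 was 0.878 times the 24 h vehicle mean, short of 0.9. At 24 h it had 343, 397, 293 and 407 under CP-775146, 394, 472, 312 and 343 with CP-868388 and 413, 478, 345 and 171 under CP-865520, against 497, 438, 493 and 659 under vehicle. The array at 171, replicate 4 of CP-865520, was far below the others and was 1 of the 3 with a low Gapdh ratio. At 24 h 104249_G_AT was not called against vehicle under CP-775146 or CP-868388 (limma adjusted p = 0.0708 and 0.0781). It was called under CP-865520 (limma adjusted p = 0.0283), the group that holds the array at 171. At 5 days it had 704 and 481 under CP-775146, 496, 642, 521 and 531 with CP-868388 and 513, 464, 448 and 407 under CP-865520, against 411, 443, 395 and 466 under vehicle. The arrays of CP-775146 and CP-868388 at 5 days all lay above those of vehicle, with ratios of means of 1.38 and 1.28, and neither difference was called.

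160119_AT met the rule in 26 of the 30 sets that leave out 1 array each. Its intensities at 24 h were 150, 163, 209 and 289 under CP-775146, 129, 216, 162 and 245 with CP-868388 and 344, 233, 241 and 196 under CP-865520, against 178, 173, 275 and 734 under vehicle. The groups overlapped, and without the vehicle array at 734 the probe set no longer met the rule. It was also lost without replicate 4 of CP-865520 at 24 h, replicate 4 of CP-868388 at 5 days or replicate 3 of vehicle at 5 days. At 5 days all arrays were between 117 and 259. Its deviations from the group means moved with those of 101955_AT, whose vehicle arrays at 24 h were 2588, 2697, 3422 and 4859 and were also highest in replicate 4. The correlation of the 2 over the 30 arrays was 0.840, the highest of the 105 member pairs.

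In 95137_AT the vehicle arrays read 842, 465, 684 and 636 at 5 days, all below the 4 vehicle arrays at 24 h. The agonist arrays of this probe set at 5 days were 900 and 359 under CP-775146, 638, 758, 740 and 976 with CP-868388 and 609, 804, 637 and 468 under CP-865520.

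Within groups the members moved together only weakly. Over the 105 member pairs, the correlation of deviations from group means across the 30 arrays had a median of 0.169, against 0.061 over all pairs past the minimum, and 15 pairs were over 0.5. These points share arrays and their scaling. The pair 102768_I_AT and 102769_F_AT, which have neighbouring IDs, reached 0.808. Their courses also matched in outline: 102768_I_AT averaged 517 ± 109, 430.5 ± 91.9 and 539.5 ± 64.6 under the 3 agonists at 24 h, against 709 ± 95.9 under vehicle (SD, n = 4 each).

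The agonists were given at the same dose and times and were compared with each other in the same model. The rule does not use these contrasts, but it uses the same agonist means and asks all 3 agonists to lie on the same side of its thresholds. It therefore favours probe sets on which they differ little, and nothing is read from a low number of calls. In all, 6 comparisons were made, 3 pairs at 2 times, with p-values adjusted over all 7963 probe sets in each. No member was called in any of them, and limma gave 1, 0 and 1 members at an unadjusted p under 0.05 at 24 h and 1, 0 and 1 at 5 days. The shares of all probe sets at that unadjusted threshold were 29.2%, 12.8% and 39.1% at 24 h and 7.76%, 5.29% and 7.72% at 5 days. Over the whole table, the calls after adjustment at 24 h were 16.4% for CP-775146 with CP-868388, 0.100% for CP-775146 with CP-865520 and 27.9% for CP-868388 with CP-865520. At 5 days the shares were 0.0753%, 0.0251% and 0.0628% in the same order of pairs. For 15 of 15 members in each comparison, the 95% interval stayed inside a 2-fold change in both directions on the scale of the fit. That scale understates a fold change of a dim probe set, so these intervals do not bound the change in intensity of the dimmer members. A missed threshold does not show that the agonists acted alike on these probe sets.

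The largest difference at 24 h between CP-775146 and CP-868388 was in 95137_AT. It had 865, 1062, 845 and 753 under CP-775146, against 608, 710, 505 and 750 under CP-868388. The arrays did not overlap, though 753 and 750 were close, and the log2 difference was 0.43 ± 0.20 (SE, 95% interval 0.03 to 0.83, limma adjusted p = 0.141). Under CP-865520 it had 832, 869, 841 and 706, and under vehicle 1014, 1083, 1207 and 1272. With the integrity covariate the difference between CP-775146 and CP-868388 was 0.13.

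Between CP-868388 and CP-865520 at 24 h the lowest adjusted p was that of 94270_AT. It had 389, 764, 413 and 620 under CP-868388, against 846, 602, 880 and 522 under CP-865520, and the groups overlapped. The log2 difference was -0.37 ± 0.17 (SE, 95% interval -0.73 to -0.02, limma adjusted p = 0.112), and with the integrity covariate it was 0.03. Without replicate 2 of CP-868388 it was called at an adjusted p of 0.0234, and without replicate 4 of CP-865520 at 0.0369. For CP-775146 minus CP-865520 at 24 h the lowest adjusted p over the members was 0.534, for 92437_AT.

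At 5 days 92437_AT averaged 1049 ± 181 with CP-868388 and 751 ± 196 with CP-865520 (SD, n = 4 each). Its log2 difference of 0.47 ± 0.16 (SE, 95% interval 0.14 to 0.80) had the lowest adjusted p of that pair, 0.434. 102768_I_AT had 683 and 367 under CP-775146, against 714, 707, 668 and 719 under CP-868388, with a log2 difference of -0.44 ± 0.19 (SE, 95% interval -0.83 to -0.06, adjusted p = 0.540). The arrays of CP-775146 lay far apart, with 1 below and 1 within the range of CP-868388. Without replicate 1 of CP-775146, which leaves only the array at 367, 102768_I_AT and 95137_AT were called in this pair, on the assumption that a lone array varies like the other groups. Between CP-775146 and CP-865520 at 5 days the lowest adjusted p was 0.947.

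Over the members, the log2 differences at 24 h ran from -0.21 to 0.43 for CP-775146 minus CP-868388, from -0.28 to 0.26 for CP-775146 minus CP-865520 and from -0.38 to 0.31 for CP-868388 minus CP-865520. At 5 days they ran from -0.44 to 0.22, from -0.33 to 0.39 and from -0.23 to 0.47 for these pairs.

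The rule was then applied without 1 replicate number at a time, and the probe sets so chosen were read in the arrays left out. This gave 9, 21, 18 and 11 probe sets without replicates 1, 2, 3 and 4. At 24 h the median ratio to vehicle in the left-out arrays lay between 0.542 and 1.05 over 12 readings, was below 1 in 11, and was at most 0.8 in 7. In the arrays used for the choice it lay between 0.627 and 0.745. Read beside all probe sets past the minimum in the same arrays, the left-out median was lower in 11 of 12 readings. The 3 readings nearest to 1 were those of replicate 2, at 0.923, 0.953 and 1.05 under CP-775146, CP-868388 and CP-865520, where the medians over all were 0.957, 0.882 and 1.05.

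At 5 days the left-out medians lay between 0.726 and 1.23 over 10 readings, with 8 at least 0.9 and 9 above the median over all probe sets past the minimum. The vehicle ratio of 5 days to 24 h in left-out arrays was 0.964, 0.911, 0.807 and 0.839, below the median over all, which was between 0.907 and 0.975, in each of the 4. In the arrays used for the choice it was lower, between 0.674 and 0.814. The readings of 1 replicate number share the vehicle arrays of that number, and each rests on 1 array per group.

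Under CP-775146 at 24 h the left-out medians for replicates 1, 3 and 4 were 0.843, 0.752 and 0.619. They were 0.745, 0.542 and 0.697 under CP-868388, and 0.831, 0.776 and 0.635 under CP-865520.

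The membership itself depended on single arrays. Leaving out 1 array at a time gave 10 to 20 probe sets, and 2 of the 15, 104249_G_AT and 160388_AT, met the rule whichever array was left out. Without replicate 4 of the 24 h vehicle group, 9 of the 15 met it, and 102768_I_AT, 160102_AT, 160119_AT, 93058_AT, 94916_AT and 95137_AT did not. Without replicate 1 of CP-775146 at 5 days, 10 of the 15 met it. Just inside the 24 h threshold stood 93058_AT and 160102_AT, with highest ratios of 0.786 and 0.80, and just outside stood 104403_AT and 102991_S_AT at 0.805 each. At 5 days 104024_AT and 101955_AT were just inside, with lowest ratios of 0.914 and 0.923, and 160121_AT and 160424_F_AT just outside, at 0.90 and 0.877. The intensity minimum kept 95101_AT and 103875_AT, with lower vehicle means of 104 and 129, and left out 160220_AT and 102117_AT at 79.8 and 75.8.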

How the data were processed

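RNA from 30 mouse livers was measured on 1-colour arrays. The deposited table holds linear intensities, whole numbers from 50 to 29064, and the submitters' processing notes name MAS5. The sources used here do not give its version or scaling target. As deposited, the authors' intensities had nearly the same mean on every array (314.1 to 318.2), and the number of arrays limits the precision. Detection calls were not used here. Groups and replicate numbers came from sample titles.

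The rule was applied to group means, and limma 3.58.1 in R 4.3.3 (lmFit, eBayes with an intensity trend) was fitted to log2(intensity + 50) with no further normalization. The 66 control probe sets were left out, and the fit was tested on simulated data. Tables were made in Python 3.11.15 with pandas 2.3.3 and numpy 2.4.6. Other settings tried were a pseudocount of 1 or 100, dropping the filter or tightening it (above 80 on at least 4 arrays), 2 scalings, smaller sets of arrays, the replicate number as a block, an RNA integrity covariate, other thresholds of the rule and leaving out arrays.

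The members and lists were chosen with earlier results of these data known. No table used here pairs probe sets with genes, so the planned gene lists, marker lists, promoter motifs and rule for named genes were not applied, and members are given by ID. Probe sets described array by array were chosen after their values were seen.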

Additional observations from a re-analysis of the deposited data

Results flagged for a closer look

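Dixon's test of the highest and lowest array was run on the 15 probe sets and their median in the groups of 4 arrays, and 6 of 112 had an array that stood apart, where chance gives about 1 in 20. For 103875_AT, replicate 3 of CP-868388 at 5 days read 179, above the other arrays of its group. For 94270_AT, replicate 1 of CP-868388 at 5 days read 468, below the others. The vehicle array of replicate 4 at 24 h read 852 for 102768_I_AT, above the others. The 5-day vehicle array of replicate 4 read 826 for 102769_F_AT, again above the others. For 160102_AT the same array read 140 where the other 3 read 139, a gap of 1 unit that stands out only because the others were equal. The median over the members in replicate 4 of CP-865520 at 24 h was -0.87 (log2 ratio to the 24 h vehicle mean), the lowest of its group, and this array had a low Gapdh 5' to 3' ratio.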

How the results depend on the processing

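The number of probe sets that meet the rule was 70 with a vehicle minimum of 50, and 4 or 54 with a 24 h threshold of 0.7 or 0.9. It was 32 or 7 with a 5-day threshold of 0.8 or 1.0, and 9 to 21 without 1 replicate number. Quantile normalization gave 15, of which 9 were among the members, and scaling to the probe sets above the floor gave 18, of which 8 were. Centring moved the median over all probe sets tested by 0.15 (log2) for CP-868388 against vehicle at 24 h and by 0.18 and 0.12 for CP-775146 and CP-865520 against vehicle at 5 days. The pairwise shifts at 24 h were -0.11 (CP-775146 minus CP-868388) and 0.15 (CP-868388 minus CP-865520), and the time shifts were 0.17 and 0.14 under CP-775146 and CP-865520. The cause of the changes below was not tested. It is known only that no filter tests more probe sets, and that smaller sets of arrays leave fewer to estimate the spread. For the fits below other than quantile normalization and centring, the share of all probe sets called was not computed. Changes of member calls in those fits are therefore not read as particular to the members.

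For the agonists in the order CP-775146, CP-868388 and CP-865520, member calls against vehicle at 24 h were 4, 5 and 4 with only the groups compared. They were 5 for CP-775146 with no filter. For CP-868388 they were 1 when RNA integrity was a covariate and 6 once the 3' bias arrays were dropped. Against vehicle at 5 days, where the reported counts were 0, CP-775146 gave 1 with the covariate, 3 after quantile normalization and 5 after centring. CP-868388 gave 3 with only the groups compared, 1 with the covariate, 1 without the 3' bias arrays, 2 after quantile normalization and 5 after centring. CP-865520 gave 1 with only the groups compared, 2 with the covariate, 1 without the 3' bias arrays, 3 after quantile normalization and 1 after centring, and also 1 with the stricter filter and 1 with no intensity trend. Between CP-868388 and CP-865520 at 24 h, centring gave 1 call, 104024_AT, at a limma adjusted p of 0.0377, where the alternatives not leaving out an array otherwise gave 0. Over all probe sets tested, centring gave 2456 calls in this pair.

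Calls of 5 days against 24 h under CP-775146 were 0 with no filter and 0 with only the groups compared. Under CP-868388 they were 1 without the 3' bias arrays, and with the covariate 2, of which 160102_AT was lower at 5 days. Under CP-865520 they were 0 with no filter, with only the groups compared and without the 3' bias arrays, 2 with the covariate, 4 after quantile normalization and 6 after centring. Over all 7963 probe sets, 2552 were called in either direction after quantile normalization and 3382 after centring. Under vehicle they were 3 with no filter. Same-numbered arrays showed no common deviation in the median (median correlation -0.01 over 98 pairs, 16 of them over 0.1). Their correlations ran from -0.37 to 0.44, and the median for different numbers was 0.002. The samples were therefore not treated as paired, though these values do not exclude a pairing. The replicate block gave 1 call for CP-868388 against vehicle at 5 days and 3 for the vehicle times.

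Leaving out 1 array, calls at 24 h against vehicle ranged from 2 to 7 for CP-775146, from 8 to 13 for CP-868388 and from 5 to 9 for CP-865520. Between CP-868388 and CP-865520 at 24 h calls ranged from 0 to 2, with 2 without replicate 1 of CP-868388. At 5 days they ranged from 0 to 1 for CP-775146 and 0 to 1 for CP-868388 against vehicle. Without replicate 1 of CP-775146 at 5 days, 95137_AT was called lower than vehicle and the median over members turned to -0.02. Between CP-775146 and CP-868388 at 5 days calls ranged from 0 to 2. For 5 days against 24 h they ranged from 0 to 3 under CP-775146 (0 without replicate 2 at 5 days, and without replicate 1 only 95137_AT, called lower), from 0 to 2 under CP-865520 and from 3 to 6 under vehicle. Single members were also followed over the settings that keep every replicate number, without leaving out 1 array. The 51 values were each member against vehicle at 24 h and the lowest adjusted p of each agonist pair. Of 561 recomputed values, 496 kept their direction and side of the threshold, 58 lost the call, 5 gained one, 2 moved and 0 reversed a call. A call could be lost only where there was one, in 9, 10 and 9 members under CP-775146, CP-868388 and CP-865520. The rule set the direction against vehicle at 24 h, so nothing is read from the 0.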
